A study of Mus musculus with 6 samples.

Results

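Chromosomal DNA is copied by a fixed set of protein machines, and the 48 mouse genes described here encode their core parts together with the enzymes that supply deoxynucleotides. They comprise the origin recognition complex (6 genes), the licensing factors (3), the MCM2-7 helicase (6), helicase activators (6), the cyclins and kinase that fire origins (4), polymerase alpha with primase (4), polymerases delta and epsilon (5), the sliding clamp and its loader (6), replication protein A (3), flap removal and ligation (2) and deoxynucleotide synthesis (3). The genes were listed by name for their function, with earlier results of these data known, so their counts are a description and not an independent test. All 48 were among the 24391 genes of the count files, and all 48 were among the 14579 genes that passed the low-count filter.

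RNA was sequenced from cultured tumour cells of iBIP mice, a melanoma model, in 3 libraries labelled KMT2D WT and 3 labelled KMT2D KO. All animals carried the transgenes Tyr-CreERT2, Rosa26-rtta and TetO-BRAFV600E with floxed alleles that include INK/ARFL/L on a mixed FVB and B6 background, were given doxycycline, and had 4-OHT at 1 uM applied to the ear, where the tumours arose. The KMT2D WT cells came from KMT2D+/+ animals and the KMT2D KO cells from KMT2DL/L animals, and the other alleles and both treatments are shared by both groups. Cre in this model is driven by the Tyr promoter, which is active in pigment cells, and it needs 4-OHT. Ages and the number of animals or tumours behind each group are not given in the sources used here, and the labels' extraction protocol names cerebellar tissue in place of cultured cells. Whether the 3 libraries of each group are separate cultures is also not given, so the p-values below rest on library-to-library spread alone, and that spread may be technical. The names in the file headers share 1 stem within KMT2D WT and another within KMT2D KO. What the stems stand for is not stated, and it cannot be told apart from the genotype, nor can a difference between the tumours of origin.

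Replication begins when the origin recognition complex, with Cdc6 and Cdt1, loads the ring-shaped MCM2-7 helicase onto DNA in G1. In S phase the Cdc7-Dbf4 kinase and cyclin E kinases turn on the helicase by recruiting Cdc45 and the GINS complex, and polymerases alpha, delta and epsilon then copy the strands behind it. Many of these genes are known targets of E2F transcription factors, and their transcripts are usually most abundant in cells entering or passing through S phase. In bulk RNA, fewer cells in S phase and less RNA per cell cannot be told apart.

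The KMT2D WT libraries held 43168605 to 59360068 counts and the KMT2D KO libraries 55594979 to 79718782, and the lowest count of any of the 48 genes in any library was 93. Values are given as CPM, counts scaled by library size and TMM factor, and a gene was called at an edgeR adjusted p under 0.05. Some features of the libraries moved with the groups, and their part in the results below was not tested. The counts of markers called are to be read beside all tested genes, of which 35.5% were called lower and 35.4% higher. Malat1, an abundant nuclear RNA, took 3.44% to 3.82% of the KMT2D WT counts and 2.19% to 2.32% of the KMT2D KO counts. The summed level of 8 fibroblast markers was 5530 to 5730 CPM in the WT group and 21200 to 22200 CPM in the KO group, with 6 called higher and 2 lower. The collagen genes Col1a1, Col1a2 and Col3a1 made up most of that sum. The 2 called lower were Dpt (42.5 to 49.3 against 0.545 to 1.17 CPM) and Lum (1.2 to 1.39 against 0.451 to 0.635 CPM). The summed level of 9 melanocyte lineage markers was 397 to 492 CPM against 658 to 692 CPM, with 3 called higher (Gpnmb, Mitf and Mlana). Gpnmb, which macrophages also express, made up most of that sum, with 379 to 477 CPM in the WT group and 607 to 636 CPM in the KO group. Mitf had 14.8 to 15.7 CPM in the WT group and 48.5 to 57 CPM in the KO group, and Pmel 0.533 to 0.889 and 0.749 to 1.33 CPM. The other 6 of the 9, Sox10, Tyr, Tyrp1, Dct, Mlana and Kit, were under 1 CPM in both groups. Of 8 immune markers 5 were called lower (12 to 20.6 against 4.51 to 5.52 CPM) and 5, Ptprc among them, were under 1 CPM in both groups. The 6 keratinocyte markers summed to 11.2 to 15 CPM against 16.2 to 17.6 CPM, of which Trp63 was called higher (0.325 to 1.36 against 9.18 to 11.2 CPM) and Dsp lower (4.86 to 7.31 against 0.96 to 1.12 CPM). The 8 cerebellum markers summed to at most 1.05 CPM in the WT group and 5.02 CPM in the KO group. The 2 of them that were tested were called higher. These were Cbln3 (0.224 to 0.308 against 1.99 to 2.59 CPM) and Syt1 (0.371 to 0.447 against 1.09 to 2.25 CPM). The 5 endothelial markers summed to at most 1.32 and 0.626 CPM, and Pecam1, the only 1 tested, was called lower. No marker was at 0 in all libraries. All 4 tested genes of the Y chromosome were lower in KMT2D KO, with a median log2 fold change of -7.58.

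Kmt2d, the histone H3 lysine 4 methyltransferase gene that defines the groups (mm9 chromosome 15, 98662100 to 98701636, minus strand), had 79.7, 87.6 and 101 CPM in replicates 1, 2 and 3 of KMT2D WT. The KMT2D KO values were 73, 69.3 and 79.8 CPM in the same order. The groups overlapped, since the lowest KMT2D WT library lay just below the highest KMT2D KO library. The log2 fold change, here and throughout KMT2D KO minus KMT2D WT, was -0.27 (SE 0.08, adjusted p = 0.0075), and without KMT2D KO replicate 2 it was -0.21 (adjusted p = 0.058). A total over the whole gene includes exons that the floxed allele keeps, so it does not check the deletion.

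Most of the replication genes were lower in the cells labelled KMT2D KO. Of the 48, 32 fell, 2 rose and 14 were not called. Among all tested genes 71% were called, 35.5% lower and 35.4% higher, so the 66.7% of replication genes called lower compares with 35.5%, and the 4.17% called higher with 35.4%. The median log2 fold change of the 48 genes was -0.44, with a range from -1.37 to 0.93, beside a median of 0 over all tested genes. The point estimate lay below 0 in 42 genes and above 0 in 6. In 34 genes (70.8%) every KMT2D KO library lay below every KMT2D WT library, against 37.1% of all tested genes. These 34 include Mcm6 and Rrm1, whose differences were small and not called. Falls beyond a log2 fold change of -1 were seen in 5 of the 48 (Mcm4, Ccne2, Gmnn, Cdc45 and, narrowly, Mcm7), a share close to the 12.9% of all tested genes. With chromosome medians taken out the falls beyond -1 were those of Ccne2, Mcm2, Rpa1 and Cdc6, and only Ccne2 was beyond -1 both ways. The value of Ccne2 is uncertain, since 53.9% of its exons are shared with Ints8. Of the 32 falls, 25 were called under all 15 alternatives tried.

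**Figure D1:**
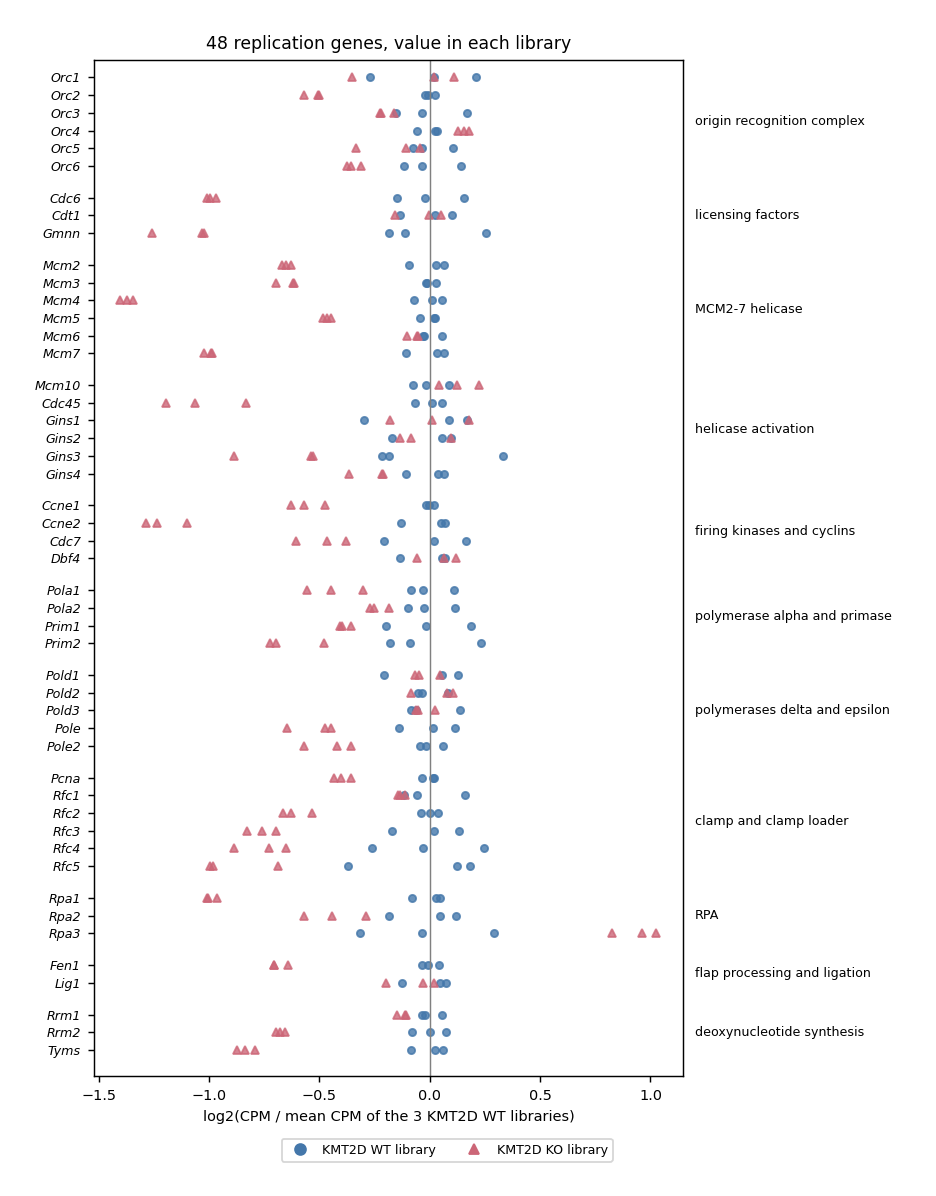
Each library's CPM on a log2 scale relative to the mean of the 3 KMT2D WT libraries (x axis) for the 48 genes ordered by role (y axis). Circles are KMT2D WT and triangles KMT2D KO libraries; in 34 genes all 3 triangles lie to the left of all 3 circles, and Rpa3 and Orc4 are the 2 genes with all triangles to the right.

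The origin recognition complex, which marks the sites where replication can start, changed in both directions. Of its 6 subunit genes 3 fell, 1 rose and 2 were not called, and the median log2 fold change was -0.18. Orc2 (chromosome 1, 58519615 to 58561953, minus strand) had 47.8, 48.9 and 47.4 CPM in the KMT2D WT libraries and 33.9, 33.8 and 32.4 CPM in the KMT2D KO libraries. The libraries of each group lay close together and far from those of the other. The mean fell from 48.1 ± 0.787 to 33.3 ± 0.826 CPM (SD, n = 3), and the log2 fold change was -0.53 (SE 0.06, adjusted p = 2.3e-06).

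Orc6 (chromosome 8, 87823531 to 87832178), the smallest and most divergent subunit, had 18.9, 16.7 and 15.8 CPM against 13.4, 13.8 and 13.2 CPM. The groups did not overlap, and Orc6 fell by 0.35 on the log2 scale (SE 0.09, adjusted p = 0.004). Orc3 also fell, from 66.1 ± 7.46 to 57.4 ± 1.47 CPM (log2 fold change -0.20, adjusted p = 0.025). Orc3 lost its call without KMT2D WT replicate 3 (-0.11, adjusted p = 0.12) or without any 1 of KMT2D KO replicates 1, 2 and 3 (adjusted p = 0.054, 0.11 and 0.1).

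Orc4 (chromosome 2, 48758274 to 48804787, minus strand), an ATPase subunit of the ring, had 43.1, 40.7 and 43.4 CPM in the KMT2D WT libraries and 46.3, 48 and 47.2 CPM in the KMT2D KO libraries. All 3 KMT2D KO libraries lay above the KMT2D WT libraries by a small margin (log2 fold change 0.15, SE 0.06, adjusted p = 0.035). The call was lost without KMT2D WT replicate 2 (adjusted p = 0.087) and without KMT2D KO replicate 1, 2 or 3 (0.065, 0.098 and 0.06), and the value was -0.12 once chromosome medians were taken out. Orc4 shares 511 bases, 10.3% of its exons, with Acvr2a. Orc1, the largest subunit, had 4.22 ± 0.687 and 4.04 ± 0.654 CPM (log2 fold change -0.06, SE 0.18), and Orc5 had 14.9 ± 0.986 and 13.4 ± 1.35 CPM (-0.15, SE 0.10). Neither was called.

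Among the licensing factors, Cdc6 and geminin fell and Cdt1 was not called. Cdc6 (chromosome 11, 98769203 to 98785256), the ATPase that loads MCM rings together with the origin recognition complex, had 14.8, 12 and 13.1 CPM in KMT2D WT. It had 6.8, 6.67 and 6.6 CPM in KMT2D KO. The KMT2D KO libraries were nearly identical and every one lay far below the lowest KMT2D WT library. The mean was 1.98-fold higher in KMT2D WT (log2 fold change -0.99, SE 0.11, adjusted p = 1.5e-06).

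Gmnn encodes geminin, the inhibitor that binds Cdt1 after origins have fired. Gmnn (chromosome 13, 24843714 to 24853806, minus strand) had 7.13, 7.51 and 9.68 CPM against 3.39, 3.97 and 3.99 CPM. The groups were well separated, and the log2 fold change was -1.10 (SE 0.15, adjusted p = 1.2e-05). Cdt1, the loading factor that geminin blocks, had 11.1, 11.7 and 9.95 CPM in the KMT2D WT libraries and 10.9, 11.3 and 9.78 CPM in the KMT2D KO libraries. These ranges overlapped almost entirely, and the log2 fold change was -0.04 (SE 0.11, adjusted p = 0.76).

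The MCM2-7 genes encode the 6 ATPases that assemble as 1 ring, each present once. Of these 6 genes 5 fell and Mcm6 was not called. The median log2 fold change of the 6 was -0.65. Mcm4 (chromosome 16, 15623990 to 15637493, minus strand) had the lowest log2 fold change of the 48 genes, though with chromosome medians taken out it stood at -0.93, behind Ccne2 (-1.34), Mcm2 (-1.07), Rpa1 (-1.07) and Cdc6 (-1.06). It had 75.2, 79.6 and 82.1 CPM in the KMT2D WT libraries and 30.5, 31.1 and 29.9 CPM in the KMT2D KO libraries. The lowest KMT2D WT library was thus above 75 CPM and the highest KMT2D KO library near 31 CPM. The mean was 2.59-fold higher in KMT2D WT (log2 fold change -1.37, SE 0.06, adjusted p = 3.4e-11).

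Mcm7 (chromosome 5, 138605817 to 138613090, minus strand) had 64.1, 62.7 and 56.9 CPM against 30.8, 30.9 and 30.1 CPM. Its level was 2-fold higher in KMT2D WT (log2 fold change -1, SE 0.07, adjusted p = 3.3e-09). Mcm2 (chromosome 6, 88833468 to 88848774, minus strand) had 53.1, 54.5 and 48.8 CPM against 32.8, 33.7 and 33.2 CPM. Mcm2 fell by 0.65 on the log2 scale (SE 0.07, adjusted p = 4e-07), while the median of its chromosome was 0.42.

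Mcm3 (chromosome 1, 20793095 to 20810294, minus strand) had 49.9, 50.1 and 51.6 CPM in the KMT2D WT libraries and 31.2, 32.9 and 33 CPM in the KMT2D KO libraries. The groups were tight and separate, and Mcm3 fell by 0.64 on the log2 scale (SE 0.06, adjusted p = 2.6e-07). Mcm5 (chromosome 8, 77633408 to 77652338) had 35, 33.5 and 35.1 CPM against 24.7, 25 and 25.3 CPM. Mcm5 showed the smallest of the 5 falls (log2 fold change -0.47, SE 0.07, adjusted p = 2.2e-05).

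Mcm6 (chromosome 1, 130228168 to 130256233, minus strand) had 56.5, 53.4 and 53.3 CPM in the KMT2D WT libraries and 50.7, 52.5 and 52.2 CPM in the KMT2D KO libraries. Its libraries did not overlap, yet the gap between the groups was smaller than the spread within them. The log2 fold change of Mcm6 was -0.07 (SE 0.06, adjusted p = 0.29).

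Levels of the subunits were compared as RPKM, CPM divided by the exon length of the gene. In KMT2D WT the highest mean levels were those of Mcm7 (25.6 ± 1.59 RPKM, SD, n = 3) and Mcm4 (22 ± 0.976), followed by Mcm6 (18.8 ± 0.624), Mcm3 (17.5 ± 0.316), Mcm2 (15.5 ± 0.88) and Mcm5 (10 ± 0.263). In KMT2D KO Mcm6 was highest at 17.9 ± 0.327 RPKM, followed by Mcm7 (12.8 ± 0.19), Mcm3 (11.2 ± 0.337), Mcm2 (9.86 ± 0.129), Mcm4 (8.5 ± 0.16) and Mcm5 (7.27 ± 0.0879). Mcm4 thus moved from the second to the fifth place of the order. The 6 levels summed to 110, 110 and 108 RPKM in the WT libraries and to 66.6, 68.3 and 67.5 RPKM in the KO libraries. The ratio of the highest to the lowest subunit was 2.63, 2.69 and 2.33 in KMT2D WT and 2.43, 2.49 and 2.45 in KMT2D KO, and these ranges overlapped.

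Relative to Mcm6 in the same library, the RPKM of Mcm4 was 1.17 ± 0.0883 in KMT2D WT and 0.476 ± 0.0116 in KMT2D KO (SD, n = 3). The corresponding ratios were 1.36 ± 0.0657 and 0.715 ± 0.0194 for Mcm7, 0.934 ± 0.0429 and 0.628 ± 0.00816 for Mcm3, 0.825 ± 0.0475 and 0.552 ± 0.00471 for Mcm2, and 0.535 ± 0.0177 and 0.407 ± 0.00516 for Mcm5. For each of the 5 ratios the groups did not overlap, and the 2-sided exact permutation test gave p = 0.1, the smallest value that 3 libraries against 3 allow. Mcm6 was taken as the common denominator after its values were seen, and the 5 numerators were called lower in the same libraries. Separation of the 5 ratios could thus be foreseen and adds no support to those calls. RPKM assumes the exon length in the files, so the ratios between genes depend on that length, which cancels in the change of a ratio between groups. The counts themselves still depend on the annotated exons.

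**Figure D2:**
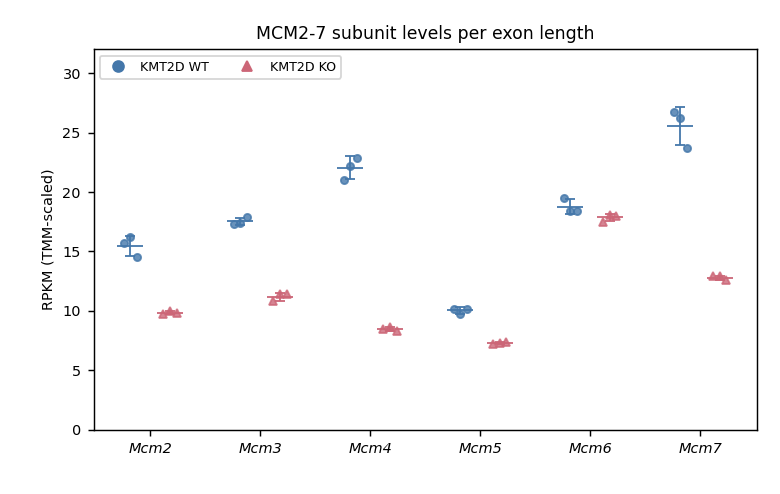
RPKM on TMM-scaled library sizes (y axis, from 0) for the 6 MCM2-7 genes (x axis), with 1 point per library and the mean ± SD of each group (n = 3). Mcm6 lies at nearly the same level in both groups, 18.8 and 17.9 RPKM, while Mcm4 lies at 22 RPKM in KMT2D WT and 8.5 RPKM in KMT2D KO.

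Promoters were examined because the MCM genes and Cdc6 are among the classical E2F targets. RefSeq promoters (250 bases before to 50 bases after the start, GRCm38.p6) were matched by symbol for 39 of the 48 genes, which have 48 promoters. No promoter was matched for Mcm4, Ccne2, Gmnn, Prim2, Pole, Rfc2 and Gins4, which fell, or for Gins1 and Gins2, which were not called. The matched promoters were searched on both strands for the E2F words TTTCCCGC, TTTCGCGC, TTTGCCGC and TTTGGCGC, with overlapping matches merged, and for CCAAT. The E2F sites that lie before the start in Mcm5, Mcm6, Mcm7 and Cdc6 are printed here, 5′ to 3′ on the strand of the gene, because Mcm5, Mcm7 and Cdc6 fell and Mcm6 was not called. Capitals mark the E2F words, which in Mcm5 and the first site of Mcm6 are 2 overlapping words.
Mcm5, chr8:75109340-75109383, plus strand: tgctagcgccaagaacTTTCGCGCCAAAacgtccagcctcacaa
Mcm6, chr1:128359788-128359831, minus strand: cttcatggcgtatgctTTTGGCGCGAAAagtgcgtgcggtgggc
Mcm6, chr1:128359729-128359768, minus strand: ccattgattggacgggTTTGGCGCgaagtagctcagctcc
Mcm7, chr5:138172025-138172064, minus strand: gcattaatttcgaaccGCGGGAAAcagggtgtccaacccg
Cdc6, chr11:98907997-98908036, plus strand: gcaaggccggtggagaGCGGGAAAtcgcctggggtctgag

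The capitals lie 153 to 142 bases before the start in Mcm5, 110 to 99 and 47 to 40 bases before it in Mcm6, 165 to 158 in Mcm7 and 138 to 131 in Cdc6. Of the 48 promoters of these genes, 15 (31.2%) held an E2F word, against 744 of all 32851 promoters (2.26%). The share was 31% (9 of 29 promoters) in genes called lower and 31.6% (6 of 19) in the other genes. Counted by gene it was 9 of 25 and 6 of 14. These shares leave out Mcm4, Ccne2 and Gmnn, which have no promoter here and are among the largest falls. CCAAT, a common proximal promoter word, was present in 25 of 48 promoters (52.1%) and in 37.4% of all promoters. It was found in 17 of 29 promoters (58.6%) of genes called lower and in 8 of 19 (42.1%) of the others. Several genes have more than 1 promoter in the table, so promoters are not independent of each other. A match is a description of the letters in the window.

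E2F words before the start were also found in genes of other roles, and 3 of them are shown to set called beside uncalled genes. Gins3 and Pola1 fell and Orc1 was not called.
Gins3, chr8:95633502-95633541, plus strand: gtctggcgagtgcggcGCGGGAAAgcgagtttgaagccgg
Pola1, chrX:93632270-93632309, minus strand: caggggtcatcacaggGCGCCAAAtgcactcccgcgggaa
Orc1, chr4:108579411-108579450, plus strand: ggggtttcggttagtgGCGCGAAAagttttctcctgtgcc

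Of the helicase activators, Cdc45, Gins3 and Gins4 fell, while Mcm10, Gins1 and Gins2 were not called. The median log2 fold change of the 6 genes was -0.15. Cdc45 (chromosome 16, 18780540 to 18812065, minus strand), which joins the MCM ring to form the active helicase, had 20.9, 20.3 and 19.2 CPM in KMT2D WT. It had 9.63, 8.79 and 11.3 CPM in KMT2D KO. The mean was 2.03-fold higher in KMT2D WT with no overlap (log2 fold change -1.02, SE 0.10, adjusted p = 4.5e-07).

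Gins3 (chromosome 8, 98157459 to 98168959) had 6.21, 4.25 and 4.34 CPM against 2.67, 3.4 and 3.42 CPM. Replicate 1 of KMT2D WT was high, but the groups still did not overlap (log2 fold change -0.65, SE 0.19, adjusted p = 0.0061). Gins4 fell from 30.3 ± 1.9 to 25.3 ± 1.54 CPM (log2 fold change -0.26, adjusted p = 0.0089), a call that was lost without KMT2D KO replicate 3 (-0.20, adjusted p = 0.057). Gins1 had 3.14 and 3.16 CPM (log2 fold change 0.02, SE 0.19) and Gins2 7.06 and 6.88 CPM (-0.04, SE 0.13). The 4 GINS proteins form 1 complex, of which 2 transcripts fell and 2 were not called. Mcm10, a helicase activator outside the ring, had 7.99 and 8.76 CPM (log2 fold change 0.13, SE 0.11, adjusted p = 0.31).

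Both E-type cyclin genes fell. Cyclin E binds Cdk2 and drives entry into S phase. Ccne2 (chromosome 4, 11118498 to 11131926) had 27.3, 24.1 and 27.6 CPM in the KMT2D WT libraries and 11.2, 12.3 and 10.8 CPM in the KMT2D KO libraries. Every KMT2D KO library held less than any KMT2D WT library, and the mean was 2.3-fold higher in KMT2D WT (log2 fold change -1.20, SE 0.09, adjusted p = 1.8e-08). The value is uncertain, because Ccne2 shares 1734 bases, 53.9% of its exons, with Ints8, and fragments in shared bases are not assigned by default.

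Ccne1 (chromosome 7, 38883003 to 38892509, minus strand) had 38.1, 39 and 38.5 CPM against 26, 27.7 and 24.9 CPM. The KMT2D WT libraries lay within 1 CPM of each other, and Ccne1 fell by 0.56 on the log2 scale (SE 0.07, adjusted p = 4.3e-06). Of the kinase that phosphorylates the MCM ring at firing, the catalytic subunit Cdc7 fell from 11.4 ± 1.46 to 8.12 ± 0.65 CPM (log2 fold change -0.48, adjusted p = 0.0022). Its activator Dbf4 was not called, with 32.4 ± 2.5 and 33.4 ± 2.07 CPM (0.05, SE 0.08, adjusted p = 0.62). Both are genes of chromosome 5, where the median log2 fold change of all tested genes was -0.36. With chromosome medians taken out, Cdc7 was no longer called (-0.13, adjusted p = 0.36) and Dbf4 was called higher (0.40, adjusted p = 0.00035).

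All 4 genes of polymerase alpha and primase, which lay down the RNA-DNA primers, fell, with a median log2 fold change of -0.41. Prim2, the large primase subunit (chromosome 1, 33510653 to 33726639, minus strand), had 33.5, 31.5 and 41.9 CPM in the KMT2D WT libraries and 22, 21.6 and 25.6 CPM in the KMT2D KO libraries. Replicate 3 was the highest in each group, and the groups were separate (log2 fold change -0.63, SE 0.10, adjusted p = 7.3e-05).

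Pola1, the catalytic subunit (chromosome X, 90550105 to 90877494, minus strand), had 28.2, 25.6 and 24.7 CPM against 19.2, 21.2 and 17.8 CPM. It fell by 0.43 on the log2 scale with no overlap (SE 0.09, adjusted p = 0.00049). Pola2 and Prim1 showed smaller falls that leaving out 1 library could end. Pola2 went from 37.9 ± 2.87 to 32.2 ± 0.975 CPM (-0.24, adjusted p = 0.0092), and was not called without KMT2D WT replicate 2 or KMT2D KO replicate 1 or 2 (adjusted p = 0.05, 0.06 and 0.051). Prim1 went from 7.38 ± 0.99 to 5.64 ± 0.104 CPM (-0.39, adjusted p = 0.016), and was not called without KMT2D WT replicate 2 (-0.28, adjusted p = 0.079), without KMT2D KO replicate 1 (-0.38, adjusted p = 0.058), or with chromosome medians taken out (-0.29, adjusted p = 0.068).

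Pole and Pole2 of polymerase epsilon, the leading strand enzyme, fell. Pold1, Pold2 and Pold3 of polymerase delta, the lagging strand enzyme, were not called. Further subunit genes of both enzymes, counted with the other fork genes below, did not all keep to this split. Pole3 fell (log2 fold change -0.36, adjusted p = 0.00088) and Pole4 was not called (0.17, adjusted p = 0.094). Pold4 rose (1.43, adjusted p = 1.3e-06), though its value is uncertain. The difference between the enzymes was not tested. Pole (chromosome 5, 110715338 to 110766472), the catalytic subunit, had 20.9, 23.3 and 24.9 CPM in the KMT2D WT libraries and 16.6, 14.7 and 16.9 CPM in the KMT2D KO libraries. The groups were separate (log2 fold change -0.52, SE 0.09, adjusted p = 0.00015), but with chromosome medians taken out Pole was not called (-0.16, adjusted p = 0.14). Pole2, an accessory subunit (chromosome 12, 70302766 to 70329177, minus strand), had 6.94, 6.56 and 6.44 CPM against 4.97, 4.48 and 5.19 CPM. Pole2 fell by 0.45 on the log2 scale (SE 0.13, adjusted p = 0.0062).

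The catalytic subunit Pold1 had 15.1 ± 1.77 and 14.8 ± 0.645 CPM (log2 fold change -0.02, SE 0.10). Pold2 had 21.4 ± 1.15 and 22 ± 1.53 CPM (0.04, SE 0.08), and Pold3 had 18.9 ± 1.65 and 18.5 ± 0.626 CPM (-0.03, SE 0.09). The adjusted p of these 3 genes was 0.69 to 0.84, and their group means differed by less than the spread between libraries of a group.

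The sliding clamp and 4 of the 5 clamp loader genes fell, with a median log2 fold change of -0.68 over the 6. Pcna, the clamp that tethers the polymerases to DNA (chromosome 2, 132075022 to 132078916, minus strand), had 82.4, 79.7 and 82.9 CPM in the KMT2D WT libraries and 63.8, 61.8 and 60.4 CPM in the KMT2D KO libraries. The libraries of each group lay within a few CPM, and Pcna fell by 0.40 on the log2 scale (SE 0.05, adjusted p = 1.3e-05). The median of its chromosome was 0.27. Per exon length Pcna stood at 64.8 ± 1.36 RPKM in KMT2D WT and 49.2 ± 1.33 RPKM in KMT2D KO (SD, n = 3).

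Rfc1 to Rfc5 encode the loader that opens the clamp. Rfc5 (chromosome 5, 117829154 to 117839032, minus strand) had 20.1, 19.3 and 13.7 CPM against 8.89, 8.95 and 11 CPM. Replicate 3 was closest to the other group on each side, and no library crossed (log2 fold change -0.89, SE 0.14, adjusted p = 3.7e-05). Rfc3 (chromosome 5, 152445399 to 152453783, minus strand) had 12.2, 13.2 and 10.7 CPM against 7.42, 7.11 and 6.77 CPM. Rfc3 fell by 0.76 on the log2 scale (SE 0.11, adjusted p = 2.4e-05).

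Rfc2 fell from 25.2 ± 0.631 to 16.5 ± 0.768 CPM (log2 fold change -0.61, adjusted p = 6.9e-06). Rfc4 fell from 3.23 ± 0.569 to 1.92 ± 0.158 CPM (-0.75, adjusted p = 0.0041), and with chromosome medians taken out it was not called (-0.30, adjusted p = 0.2). Rfc1, the large subunit, was not called, with 75.4 ± 7.85 and 68.9 ± 0.748 CPM (-0.13, SE 0.07, adjusted p = 0.11). With chromosome medians taken out Rfc1 was called higher (0.23, adjusted p = 0.01), since Rfc1, Rfc2, Rfc3 and Rfc5 all lie on chromosome 5.

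The 3 subunits of replication protein A, which coats single-stranded DNA, moved in opposite directions. Rpa1, the large DNA-binding subunit (chromosome 11, 75113761 to 75161885, minus strand), had 190, 192 and 176 CPM in the KMT2D WT libraries and 92.6, 92.4 and 95.3 CPM in the KMT2D KO libraries. It was 1.99-fold higher in KMT2D WT, with groups far apart (log2 fold change -0.99, SE 0.05, adjusted p = 3.6e-10). Rpa2, the regulatory subunit (chromosome 4, 132324275 to 132334661), had 11.2, 11.8 and 9.55 CPM against 7.32, 7.99 and 8.89 CPM. The groups came close but did not overlap, and Rpa2 fell by 0.43 on the log2 scale (SE 0.12, adjusted p = 0.0047).

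Rpa3, the small subunit (chromosome 6, 8205936 to 8209141, minus strand), had 2.99, 3.75 and 2.46 CPM in the KMT2D WT libraries and 5.98, 6.25 and 5.43 CPM in the KMT2D KO libraries. It was the only 1 of the 48 genes called higher under all 15 alternatives, and it was 1.91-fold higher in KMT2D KO (log2 fold change 0.93, SE 0.17, adjusted p = 0.00016). Chromosome 6 as a whole had a median log2 fold change of 0.42. Per exon length, Rpa1 stood at 59.9 ± 2.76 RPKM in KMT2D WT and 30.1 ± 0.524 in KMT2D KO, and Rpa3 at 4.81 ± 1.01 and 9.23 ± 0.653 RPKM. Rpa2 had 6.1 and 4.53 RPKM. Rpa3 thus lay below Rpa2 in the WT means and above it in the KO means.

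Fen1 fell and Lig1 was not called in the pair of genes that finish Okazaki fragments. Fen1, the flap endonuclease (chromosome 19, 10273622 to 10278433, minus strand), had 29, 28.5 and 30 CPM in the KMT2D WT libraries and 17.9, 17.9 and 18.7 CPM in the KMT2D KO libraries. The libraries were tight within groups and far apart between them (log2 fold change -0.68, SE 0.07, adjusted p = 1.1e-06). Lig1, the ligase that seals the nick, had 22.2 ± 1.63 and 21.3 ± 1.65 CPM (log2 fold change -0.06, SE 0.09, adjusted p = 0.53). With chromosome medians taken out Lig1 was called lower (-0.22, adjusted p = 0.042).

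Of the deoxynucleotide synthesis genes Rrm2 and Tyms fell and Rrm1 was not called. Rrm1 and Rrm2 encode ribonucleotide reductase, which turns ribonucleotides into deoxyribonucleotides. Rrm2, the small subunit whose level rises in S phase (chromosome 12, 25393119 to 25399011), had 55.5, 58.5 and 52.5 CPM in the KMT2D WT libraries and 35.2, 34.3 and 34.7 CPM in the KMT2D KO libraries. It was 1.6-fold higher in KMT2D WT (log2 fold change -0.68, SE 0.06, adjusted p = 2.1e-07). Rrm1, the large catalytic subunit, had 98.9, 92.8 and 93.8 CPM against 88.1, 88.4 and 85.8 CPM. Its groups did not overlap, but the difference was small and just missed the threshold (-0.12, SE 0.05, adjusted p = 0.053), and it was called lower under 8 of the 15 alternatives.

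Tyms, thymidylate synthase (chromosome 5, 30384740 to 30400165, minus strand), had 36.6, 33.1 and 35.7 CPM in the KMT2D WT libraries and 19.7, 20.3 and 19.2 CPM in the KMT2D KO libraries. The KMT2D KO libraries were close together and far below the others, and the level was 1.78-fold higher in KMT2D WT (log2 fold change -0.83, SE 0.07, adjusted p = 1.1e-07). The files also hold Tyms-ps, a near copy of Tyms, and fragments that map to both are left out by default.

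Expression differed along whole chromosomes, so each replication gene was set beside the median of the tested genes on its chromosome. Of the 48 genes 44 lay below that median and 4 above it. Chromosome 5 holds 10 of the genes, of which 7 fell and none rose, with a median of -0.56. Among the 921 tested genes of chromosome 5 the median was -0.36 and 54.4% were called lower. Of the 38 genes on other chromosomes 25 fell and 2 rose, with a median of -0.41. Mcm4 and Cdc45 lie on chromosome 16, where the median of 450 genes was -0.44 and 61.6% were called lower, and Gmnn on chromosome 13, where the median of 566 genes was -0.54. Mcm2 and Rpa3, which moved in opposite directions, both lie on chromosome 6, where 57.6% of 721 genes were called higher. With chromosome medians used as offsets in the model, an alternative added after the data were seen, 30 of the 48 were called lower and 3 higher. Of the 28 genes called lower in both fits, 7 had a fall smaller by over 1.5 times with the offsets and 6 a larger one. The smaller falls were those of Gmnn (-0.56), Mcm7 (-0.64), Cdc45 (-0.58), Tyms (-0.47), Rfc2 (-0.25), Rfc3 (-0.41) and Rfc5 (-0.53). The larger ones were those of Mcm2 (-1.07), Pcna (-0.67), Orc6 (-0.56), Gins4 (-0.47), Pola2 (-0.41) and Orc3 (-0.33). The rise of Rpa3 was 0.51 (adjusted p = 0.014) with the offsets.

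**Figure D3:**
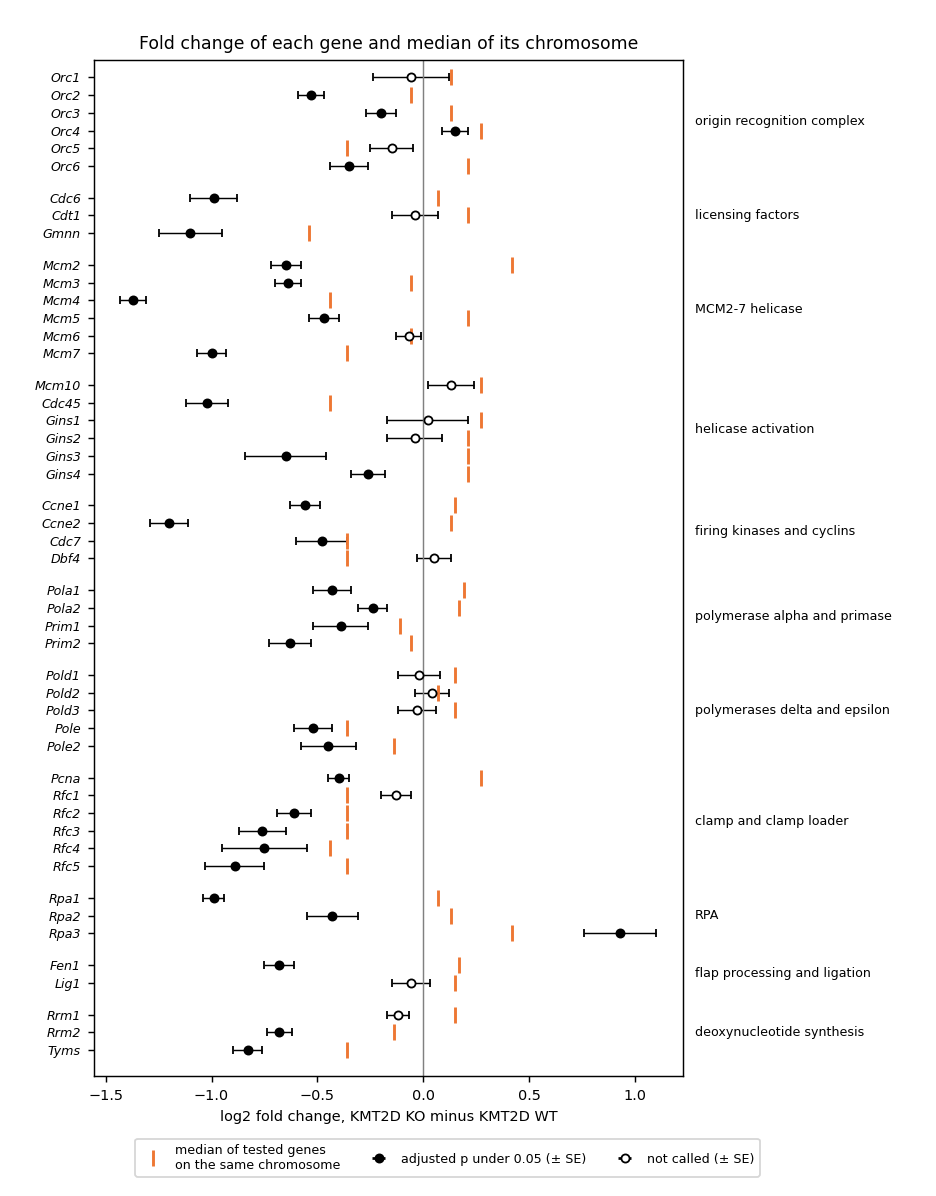
Log2 fold change of each of the 48 genes with its standard error (x axis; y axis, genes by role), filled where the adjusted p was under 0.05, with an orange tick at the median of tested genes on the same chromosome. In 44 genes the point lies to the left of its tick, and Rpa3, at 0.93, lies furthest to the right.

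Related genes were read from 4 lists in the same fit, beside 35.5% lower and 35.4% higher among all tested genes. Of 31 other nucleotide synthesis genes 19 fell, 4 rose and 8 were not called. Their median log2 fold change was -0.30. Ppat, the committing enzyme of purine synthesis, fell from 46 ± 2.09 to 17.7 ± 0.884 CPM (log2 fold change -1.38, adjusted p = 2.8e-10). Dck, deoxycytidine kinase of the salvage route, fell from 19 ± 3.42 to 7.36 ± 0.626 CPM (-1.37, adjusted p = 2.1e-07). Umps, which makes uridine monophosphate, fell from 48.2 ± 2.99 to 19.5 ± 1.11 CPM (-1.31, adjusted p = 7.2e-10).

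The gene that rose most in this list acts against deoxynucleotide supply. Samhd1, which hydrolyses deoxynucleoside triphosphates, rose from 14.5 ± 0.871 to 57.2 ± 1.84 CPM (log2 fold change 1.99, adjusted p = 3.5e-12). Of the pyrimidine enzymes, Dhodh rose from 8.4 ± 0.928 to 12.9 ± 0.852 CPM (0.62, adjusted p = 0.00017) and Ctps, CTP synthase, from 128 ± 14.2 to 186 ± 4.24 CPM (0.54, adjusted p = 6.2e-06). Enzymes of 1 pathway thus lay on both sides, with Umps lower and Dhodh higher.

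Of 34 other fork and replisome genes 18 fell, 8 rose and 8 were not called. The list's median was -0.27. Dna2, a nuclease-helicase of flap processing, fell from 4.17 ± 0.529 to 1.2 ± 0.0356 CPM (log2 fold change -1.80, adjusted p = 9.9e-07). Hells, a chromatin remodeller, fell from 56.2 ± 7.14 to 24.8 ± 1.42 CPM (-1.18, adjusted p = 1.6e-08), and Donson, a fork protection factor, from 10.6 ± 0.53 to 4.76 ± 0.291 CPM (-1.16, adjusted p = 4.2e-07). Pold4, the smallest polymerase delta subunit, rose from 3.88 ± 0.919 to 10.5 ± 0.966 CPM (1.43, adjusted p = 1.3e-06). Its value is uncertain, since 64.4% of its exon bases are shared with a read-through gene. Top2a, the topoisomerase of S phase and mitosis, rose from 120 ± 5.03 to 195 ± 6.59 CPM (0.71, adjusted p = 1.9e-08). Ticrr, which helps fire origins, rose from 4.2 ± 0.967 to 6.29 ± 0.458 CPM (0.59, adjusted p = 0.0055).

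Of 30 genes of E2F, RB and S-phase control 13 fell, 8 rose and 9 were not called. The list's median was -0.13. The rises include Cdkn2a (0.87, 13.3 to 24.4 CPM), the INK/ARF locus that is floxed in all animals. Chek1, the S-phase checkpoint kinase, fell from 6.62 ± 1.72 to 2.75 ± 0.435 CPM (log2 fold change -1.28, adjusted p = 3.5e-05). E2f8, a repressor of the E2F family, fell from 18.5 ± 4.06 to 8.19 ± 1.05 CPM (-1.16, adjusted p = 3.8e-06), and Cks1b, a Cdk partner, from 29.3 ± 0.432 to 13.5 ± 1.3 CPM (-1.11, adjusted p = 2.4e-08). The largest rises were in inhibitors of cyclin-dependent kinases and in an activating E2F. Cdkn1b, which encodes p27, rose from 22 ± 2.97 to 106 ± 1.95 CPM (2.28, adjusted p = 2.8e-12), and Cdkn2c from 23.5 ± 2.32 to 49.1 ± 2.77 CPM (1.06, adjusted p = 1.9e-08). E2f2 rose from 1.95 ± 0.376 to 4.19 ± 0.258 CPM (1.11, adjusted p = 9.1e-05). Not all genes of these kinds rose. The inhibitor gene Cdkn1a was called lower (187 to 167 CPM, -0.16, adjusted p = 0.026) and Cdkn2d was not called. E2f1 (42.9 to 34.4 CPM, -0.32, adjusted p = 0.0014) and E2f3 (39 to 20.7 CPM, -0.91, adjusted p = 3.4e-08) fell.

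Of 25 mitosis genes 16 rose, 3 fell and 6 were not called, and the list's median was 0.43. Bub1b, a spindle checkpoint kinase, rose from 14 ± 1.25 to 40.4 ± 0.898 CPM (log2 fold change 1.53, adjusted p = 3e-10). Cdc25c, the phosphatase that turns on Cdk1, rose from 1.95 ± 0.152 to 3.57 ± 0.133 CPM (0.87, adjusted p = 0.00053), and Tpx2, a spindle assembly factor, from 37.9 ± 2.45 to 66 ± 3.61 CPM (0.80, adjusted p = 6.6e-08). The 3 falls were those of Mad2l1, another checkpoint gene (17.4 ± 1.33 to 11.1 ± 0.668 CPM, -0.64, adjusted p = 3e-05), Kif23 (-0.28, adjusted p = 0.015) and Kif20a (-0.22, adjusted p = 0.017), 2 kinesins of cell division. Kif20a shares 1344 bases, 34.4% of its exons, with Brd8 and Cdc23, and with chromosome medians taken out it was called higher (0.28, adjusted p = 0.0041). Without KMT2D KO replicate 1 only Mad2l1 was still called lower of the 3. Kif23 was also not called without KMT2D KO replicate 2 (adjusted p = 0.073), nor Kif20a without KMT2D KO replicate 3 (adjusted p = 0.069).

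Set side by side, 66.7% of the 48 replication genes were called lower and 4.17% higher, while 12% of the mitosis genes were called lower and 64% higher. The other nucleotide synthesis genes stood at 61.3% lower and 12.9% higher, the other fork genes at 52.9% and 23.5%, and the E2F, RB and S-phase genes at 43.3% and 26.7%, nearer to the 35.5% and 35.4% of all tested genes. No test of the difference between lists was made.

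**Figure D4:**
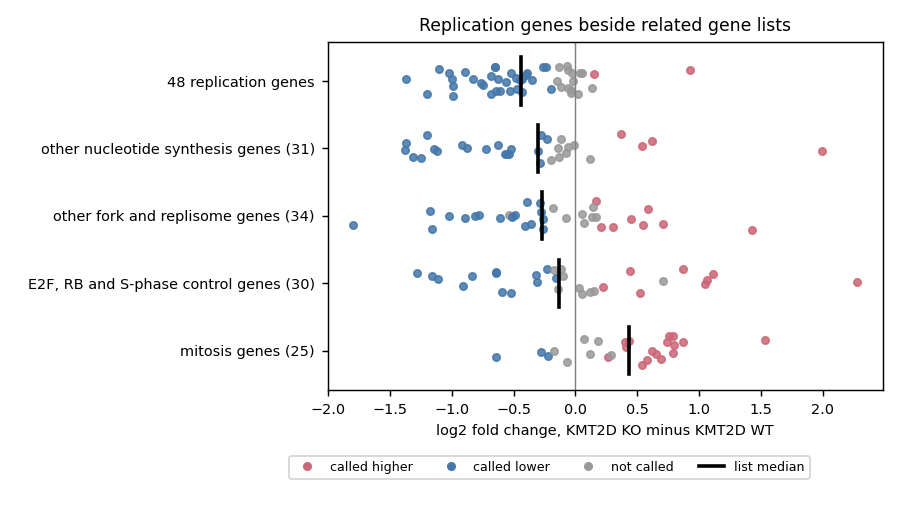
Log2 fold change (x axis) of each tested gene in the 48 replication genes and 4 related lists (y axis), with 1 point per gene coloured by its call and a bar at the median of the list. The replication genes have a median of -0.44 and the mitosis genes a median of 0.43.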

How the data were processed

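The authors deposited whole-number counts of read pairs per gene, which featureCounts 1.5.2 made from mm9 exons, per the file headers. The submitters' processing notes also name STAR and HTSeq, without a role. No strand, multi-mapping or overlap option was set, so antisense and overlapping genes and near copies are uncertain. From the deposited counts, CPM, RPKM (exon lengths of the files) and log2 fold changes were computed with edgeR 4.0.16 in R 4.3.3. The fit used TMM scaling, filterByExpr by group, the quasi-likelihood F test with group as the only factor, and Benjamini-Hochberg adjustment over all 14579 tested genes. The SE is the log2 fold change divided by the square root of F. Calls need an adjusted p under 0.05.

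The 48 genes, the related lists and the markers were chosen with earlier results of these data known. Values in every library are given for Kmt2d, MCM2-7, Ccne1, Ccne2, Pcna, Rrm2 and, per role, up to 2 genes called in each direction with the largest fold change. Those of Cdt1 and Rrm1, and the promoter windows printed, were chosen after their values were seen. Each related list gives up to 3 genes per direction, among those whose higher group averaged 1 CPM or more. Coordinates of genes are mm9 and those of promoters GRCm38.p6, and the 2 were not mixed.

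Alternatives were RLE factors, library size only, DESeq2 1.42.0, limma voom (limma 3.58.1), 2 other low-count filters, robust empirical Bayes, a replicate block, chromosome medians as offsets and leaving out each library. The code was tested on simulated data. Counts of libraries within a group differed by more than sampling noise. An engineered allele shared by both groups is not reported here.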

Additional observations from a re-analysis of the deposited data

How the results depend on the processing

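Over the 15 alternatives, 25 of the 32 falls and 1 of the 2 rises were called each time with the same sign. The number of the 48 genes called lower ranged from 29 to 36. The number called higher was 1 with library size only and with a filter at a mean of 1 CPM, was 1 to 2 when each library was left out in turn, and 4 genes lay above the median of their chromosome, a count with no test. The median log2 fold change was -0.55 with library size only, a scaling that moved the median of all genes by -0.11 and gave 4415 genes higher and 5987 lower in place of 5164 and 5181. It was -0.47 to -0.40 with 1 library left out and -0.41 after centring on chromosome medians.

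With chromosome medians as offsets 6 of the 48 genes changed sign. Orc4 went to -0.12 (adjusted p = 0.095) and Rfc1 to 0.23 (0.01), and Orc5 (0.21), Mcm10 (-0.14), Gins1 (-0.26) and Pold2 (-0.04) were called in neither fit. Of the mitosis genes named, Kif23 went to 0.02 (0.89) and Kif20a to 0.28 (0.0041). The same offsets, and library size only, each left 5 in place of 8 other fork genes called higher. For Mcm6, Orc5 and Rfc1, library size only gave calls lower that the TMM scaling did not.

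The labels give both groups replicates 1 to 3, but deviations from the group means of same-numbered libraries correlated at 0.01, 0.01 and 0.01, so the numbers were not taken as pairs. With a replicate block 32 of the 48 genes were called lower and 2 higher, with a median of -0.44, and no call among them changed. With 3 libraries a group, small changes such as those of Orc4, Orc3 and Rrm1 had adjusted p near the threshold, and a call on them can turn on 1 library.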

Other observations

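Several replication genes share a start region with a gene on the other strand, a pattern examined after the data were seen. In mm9, 14 of the 48 genes have a start within 1000 bases of an oppositely transcribed gene's start, and all 14 neighbours were tested. Of the 9 that fell, the neighbour fell in 4, rose in 1 and was not called in 4, beside 35.5% lower and 35.4% higher among all tested genes. Smyd4, whose start lies 50 bases from that of Rpa1, fell from 24.2 ± 1.25 to 16 ± 1.61 CPM (SD, n = 3; log2 fold change -0.60, edgeR adjusted p = 3.4e-05). Ufd1l, 322 bases from Cdc45, fell from 60.1 ± 2.41 to 41.2 ± 2.76 CPM (-0.54, adjusted p = 3.6e-06). Prkdc, the DNA-dependent protein kinase gene 466 bases from Mcm4, fell by 0.35 on the log2 scale (adjusted p = 0.0042), against a fall of 1.37 for Mcm4. Pxmp2, 151 bases from Pole, fell from 3.12 to 0.996 CPM (-1.64, adjusted p = 1.8e-05). Chromosome medians were not taken out of these values. They were 0.07 for Smyd4 (chromosome 11), -0.36 for Pxmp2 (chromosome 5) and -0.44 for Ufd1l and Prkdc (chromosome 16). Prkdc thus lay above the median of its chromosome and Ufd1l below it.

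Other pairs differed. Ap4m1, 159 bases from Mcm7, was not called (-0.17, adjusted p = 0.16). Neither were Rars2 beside Orc3 (0.17, adjusted p = 0.16) and Vps35 beside Orc6 (0.04, adjusted p = 0.51). 1700001G17Rik beside Prim2, at 0.464 and 0.221 CPM, was also not called (-1.11, adjusted p = 0.13). Tmem258, 259 bases from Fen1, rose (0.19, adjusted p = 0.037) while Fen1 fell by 0.68. Beside the 2 genes that rose, both neighbours rose as well. Umad1, 147 bases from Rpa3, rose from 4.43 ± 0.764 to 11.7 ± 0.733 CPM (1.39, adjusted p = 3.1e-07). Mbd5, 241 bases from Orc4, rose by 0.31 (adjusted p = 0.013). Chromosome medians were 0.42 for Umad1 (chromosome 6) and 0.27 for Mbd5 (chromosome 2), so Mbd5 lay near that of its chromosome. Among neighbours of the uncalled genes, Prpf38a rose beside Orc1 (0.44), and Slc25a40 (-0.47) and 6030443J06Rik (-1.59) fell beside Dbf4 and Orc5. The chromosome median was 0.13 for Prpf38a (chromosome 4) and -0.36 for Slc25a40 and 6030443J06Rik (chromosome 5). Counting used no strand, so reads that run past a start cannot be assigned to 1 gene of a pair.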
